A study of Homo sapiens with 4 samples.

Results

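The sort for the chromatin label H2B-eGFP was set against the sorts for the 2 dyes, Claret and Violet, gene by gene, in MDA-MB-231 cells. MDA-MB-231 is an established line of human breast cancer of the triple-negative kind. A gene was kept when its mean over these 3 libraries was at least 5 CPM, the reads of a gene scaled to a common library total. That left 11493 of the 58735 genes in the deposited table, of which 10838 (94.3%) are protein coding. For each gene kept, eGFP was placed above both dyes, below both or between them, and its distance to the nearer dye was measured. The genes of interest are those in which eGFP lay at least 1.5-fold outside both dyes on the same side, which were 32 of the 11493 (0.278%). A wider limit, a log2 distance of 0.32, is used where named.

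All cells carried the same doxycycline-inducible H2B-eGFP reporter (TetOn-H2BeGFP), received 5 μg/ml doxycycline for 3 days, took up both dyes and were then chased for 12 days. The labels give no other difference between groups than the sort: the brightest 1% of cells for eGFP, for Claret or for Violet, and Bulk cells sorted with no gate on fluorescence. Each group is 1 library, the labels do not say how many cultures stood behind it, and they do not call the dyes replicates of each other. No difference below therefore has a replicate check, and intervals given are exact 95% (Clopper-Pearson) intervals of the read ratio of 2 libraries, which cover counting error only. Transduced cells of 1 line were used, and the labels do not say whether they were 1 clone or which H2B gene the reporter carries. In bulk RNA, fewer cells of a kind and less RNA per cell cannot be told apart.

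H2B is a core histone, wrapped by DNA in the nucleosome, so eGFP fused to it is held in chromatin and is shared between daughter cells when the genome is copied and divided. Dyes used for the same purpose bind membranes or proteins throughout a cell and are diluted by division as well as by turnover of what they bind; the labels do not give the chemistry of Claret or Violet. All 3 sorts are meant to collect cells that divided little, through labels held in different material.

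Groups follow the sample titles, which are also the names of the table's columns. In all 4 samples the treatment field names another sort than the title, and it calls the library titled eGFP "Violet+". Under that field 16 genes instead of 11 lay above and 11 instead of 21 below. The library titled Bulk held 6778 reads of the proliferation marker MKI67, against 689 to 995 in the other 3 libraries. Summed reads were 15508179 to 16976909 per library, and mitochondrial genes took 5.06% to 5.48% of them in the 3 sorts. The 7 markers expected of the line, VIM and KRT8 among them, were all present, with a summed level of 2462 to 2627 CPM in the 3 sorts. Of 6 markers taken to be absent or low, ESR1 and CDH1 had 6 reads or fewer in these sorts and PGR had 0. The other 3 were present: ERBB2 had 1415 to 1542 reads, GATA3 74 to 94 and EPCAM 28 to 61. Immune markers summed to at most 0.823 CPM in any library, and CD3E was at 0. Fibroblast markers summed to 21.3 to 22.9 CPM in the sorts, nearly all of it COL1A1, and endothelial markers to 5.99 to 8.04 CPM; LUM was at 0. Luminal markers, nearly all KRT19, summed to 450 CPM in eGFP, 451 in Claret, 380 in Violet and 167 in Bulk. Basal and erythroid markers summed to at most 0.441 and 0.127 CPM.

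The 3 sorts lay close to each other. On the log2 scale (CPM scaled by TMM, with a prior count of 2 reads), the ratios over all genes kept had a standard deviation of 0.196 for eGFP to Claret, 0.205 for eGFP to Violet and 0.198 for Violet to Claret. eGFP lay above both dyes in 3864 genes (33.6%), below both in 3581 (31.2%) and between them in 4048 (35.2%). Past the wider limit were 104 genes above (0.905%) and 201 below (1.75%), together 2.65%. At least 1.5-fold outside were 11 above (0.0957%) and 21 below (0.183%), and at least 2-fold outside were 4 above (0.0348%) and 2 below (0.0174%), together 0.0522%. By the same rule Claret lay 1.5-fold above the other 2 sorts in 8 genes (0.0696%) and below in 14 (0.122%), and Violet above in 26 (0.226%) and below in 11 (0.0957%). Past the wider limit Claret was above in 102 (0.887%) and below in 131 (1.14%), and Violet above in 184 (1.6%) and below in 130 (1.13%). The number of genes above both others was thus near that of Claret and under that of Violet, and the number below was the highest of the 3 sorts at both limits. Of the 11 genes above, 7 are near-identical copies of another gene, and of the 21 below 5 are, against 3.87% of all genes kept. These copies are described after the genes whose reads can be assigned.

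**Figure D1:**
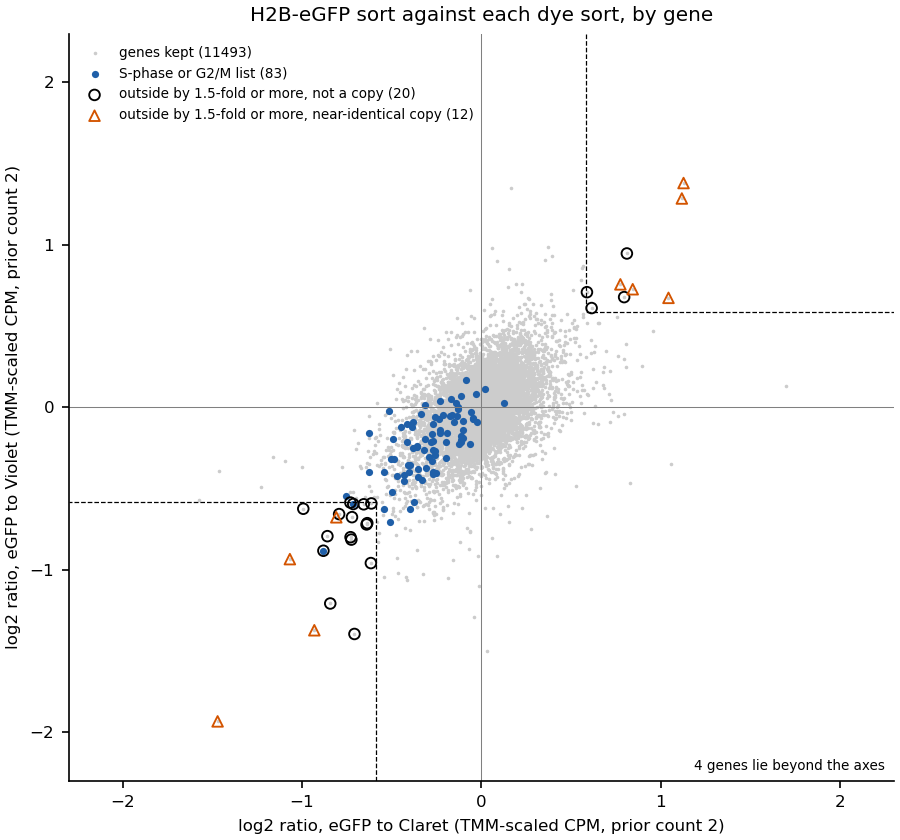
Log2 ratio of eGFP to Claret (x axis) against eGFP to Violet (y axis) for the 11493 genes kept, 1 library per sort; dashed lines mark 1.5-fold outside both dyes. Both axes contain the eGFP library, so the ratios are not independent; the cell-cycle genes (filled) lie mostly at the lower left, and 12 of the 32 genes past the lines are near-identical copies (triangles).

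Of all lists, the genes of mitosis had the largest share below both dyes. Cells copy their genome in S phase with replication enzymes whose genes are controlled by E2F factors, and divide in G2/M with kinases, kinesins and centromere proteins whose genes are controlled largely by the DREAM and MuvB complexes. Of 48 G2/M genes kept from a list of 52, eGFP was below both dyes in 45, between them in 2 and above both in 1 (BUB3). Of all genes kept, 31.2% lay below both dyes. The median log2 ratio of the list was -0.28 to Claret and -0.26 to Violet, where all genes kept had -0.00 and 0.01. Of 35 S-phase genes kept from a list of 43, eGFP was below both in 28, between in 6 and above in 1 (SLBP, the histone mRNA binding protein), with medians of -0.27 to Claret and -0.10 to Violet. The read ratio lay below 1 against each dye beyond counting error in 29 of the 48 G2/M genes and 5 of the 35 S-phase genes, against 5.38% of all genes kept. Past the wider limit were 15 G2/M and 4 S-phase genes, so the 2 lists supplied 19 of the 201 genes at that distance and 0 of the 104 above. The 2 lists hold 83 of the 11493 genes kept. At so small a share, their absence among 104 genes says little. The lists were drawn up with earlier results of these data known, so these counts are a description.

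All 3 sorts stood far under Bulk for the same genes, and eGFP stood lowest. Summed over the list, the G2/M level in eGFP was 19.4% of that in Bulk, in Claret 23.5% and in Violet 23.4%. For the S-phase list the shares were 19.5% in eGFP, 22.5% in Claret and 20.8% in Violet. eGFP was the lowest of the 3 sorts in 45 G2/M genes, Violet in 3 and Claret in 0. In the S-phase list eGFP was lowest in 28 genes, Violet in 6 and Claret in 1. The size of the difference between sorts was thus small beside that between any sort and Bulk.

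Among S-phase genes, CDC45, a part of the helicase that unwinds DNA at replication forks (chr22:19479459-19520612, GRCh38), had 83 reads in eGFP, 165 in Claret, 154 in Violet and 1129 in Bulk. Its log2 ratio was -0.88 to each dye, with a counting interval of -1.29 to -0.51 against Claret and -1.30 to -0.50 against Violet. It was the S-phase gene farthest outside the dyes, and the only member of that list past 1.5-fold. RRM2, the regulated subunit of the enzyme that makes deoxynucleotides, had 213 reads in eGFP, 385 in Claret, 310 in Violet and 3007 in Bulk. CHAF1B, a subunit of the chaperone that places new histones on copied DNA, had 126, 191, 181 and 757 reads in the same order. RFC3, a subunit of the clamp loader, had 150, 234, 197 and 948. In these genes both dyes held more reads than eGFP and fewer than Bulk. PCNA, MCM7 and POLE also lay below both dyes, but within counting error of at least 1 dye.

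Among G2/M genes, BIRC5, the survivin subunit of the complex that guards chromosome attachment and cytokinesis (chr17:78214186-78225636), had 272 reads in eGFP, 478 in Claret, 410 in Violet and 2841 in Bulk. Its log2 ratio was -0.71 to Claret (-0.94 to -0.50) and -0.60 to Violet (-0.83 to -0.37). NEK2, a kinase that separates centrosomes, had 180 reads in eGFP, 281 in Claret, 278 in Violet and 706 in Bulk, with log2 ratios of -0.54 and -0.63. HMMR, a spindle protein that also binds hyaluronan, had 77, 118, 126 and 347 reads in the same order. In these 3 genes the dyes lay closer to each other than either lay to eGFP. TTK, the spindle checkpoint kinase, had 166 reads in eGFP, 240 in Claret, 227 in Violet and 969 in Bulk. MKI67, which coats mitotic chromosomes, had 689, 995, 915 and 6778. TOP2A, the topoisomerase that untangles copied DNA, had 2487, 3399, 3330 and 14220. The deep coverage of MKI67 and TOP2A kept the counting interval narrow, and their log2 distance to the nearer dye was -0.42 and -0.35. CDC20, the activator of the anaphase-promoting complex, showed no such distance, with 374 reads in eGFP, 437 in Claret and 372 in Violet.

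**Figure D2:**
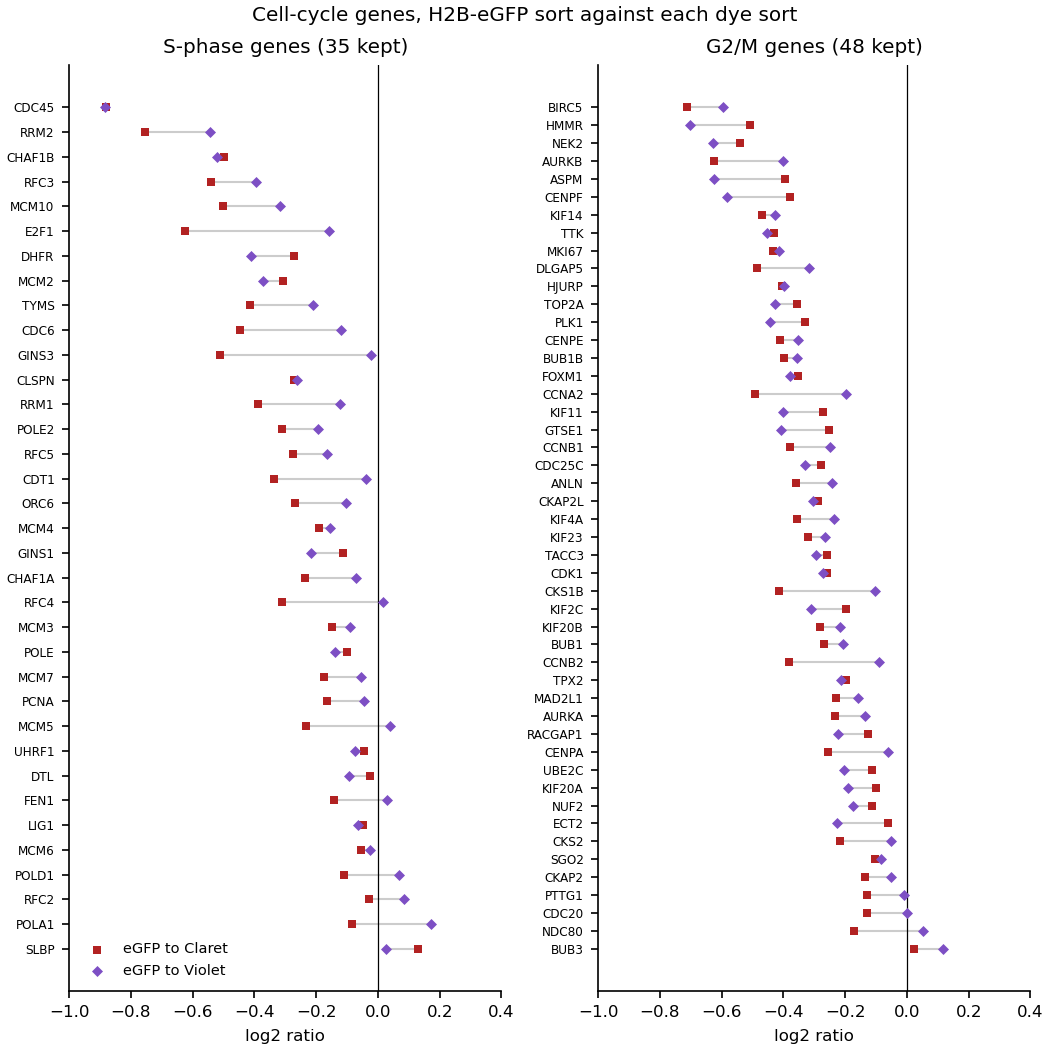
Log2 ratio of eGFP to Claret (squares) and to Violet (diamonds) for each S-phase (35) and G2/M (48) gene kept, 1 library per sort, sorted by the mean of the ratios. Points left of the line are genes with fewer scaled reads in eGFP; in 28 S-phase and 45 G2/M genes both points lie on the left.

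Promoter sequences show what the G2/M and S-phase members share apart from their levels. Windows from 250 bases before to 50 bases after the start were taken from RefSeq (GRCh38.p14) and searched on both strands; 40 of the 48 G2/M genes, 32 of the 35 S-phase genes and 8915 of the genes kept had an entry. The CHR element (TTTGAA), through which MuvB complexes bind, was in 67.5% of the G2/M windows, 3.13% of the S-phase windows and 9.19% of those of genes kept (15.4% of all 27305 windows). The CCAAT box, bound by NF-Y, was in 77.5% of the G2/M, 59.4% of the S-phase and 36.6% of the kept windows (35.7% of all). An E2F-like match (TTTNNCGC) was in 7.5% of the G2/M, 65.6% of the S-phase and 10.9% of the kept windows (6.90% of all). Among all genes below both dyes past the wider limit, copies left out, CHR was in 20.6% of 126 windows, and among those above in 11.5% of 61. Of the 126, the 16 windows of genes in the cell-cycle lists held CHR in 56.2%, and the other 110 in 15.5%. A match describes letters in the window and is not a measured binding site. None of the 4 stretches below holds an exact match to TTTNNCGC, and other forms of E2F site were not searched. Below are the 250 bases before the start of 2 G2/M and 2 S-phase genes that lay far below both dyes. Matches to CHR and to the CCAAT box on either strand (ATTGG on the other) are in capitals.
NEK2 (chr1:211675622-211675871, minus strand): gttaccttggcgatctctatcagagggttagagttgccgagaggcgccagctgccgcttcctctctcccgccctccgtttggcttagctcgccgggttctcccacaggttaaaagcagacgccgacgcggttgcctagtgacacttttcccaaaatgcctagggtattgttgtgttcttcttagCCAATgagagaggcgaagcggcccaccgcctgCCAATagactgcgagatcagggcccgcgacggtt
HMMR (chr5:163460382-163460631, plus strand): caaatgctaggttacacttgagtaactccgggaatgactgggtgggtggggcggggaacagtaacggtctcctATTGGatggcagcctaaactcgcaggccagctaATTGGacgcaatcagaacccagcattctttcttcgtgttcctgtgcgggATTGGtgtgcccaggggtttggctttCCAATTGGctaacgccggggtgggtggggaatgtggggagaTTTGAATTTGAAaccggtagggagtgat
CDC45 (chr22:19479670-19479919, plus strand): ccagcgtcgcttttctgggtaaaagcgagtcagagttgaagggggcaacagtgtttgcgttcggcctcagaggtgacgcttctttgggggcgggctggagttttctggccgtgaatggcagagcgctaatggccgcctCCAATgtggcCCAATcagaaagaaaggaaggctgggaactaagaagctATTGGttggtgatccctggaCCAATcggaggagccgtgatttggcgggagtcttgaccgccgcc
RRM2 (chr2:10122489-10122738, plus strand): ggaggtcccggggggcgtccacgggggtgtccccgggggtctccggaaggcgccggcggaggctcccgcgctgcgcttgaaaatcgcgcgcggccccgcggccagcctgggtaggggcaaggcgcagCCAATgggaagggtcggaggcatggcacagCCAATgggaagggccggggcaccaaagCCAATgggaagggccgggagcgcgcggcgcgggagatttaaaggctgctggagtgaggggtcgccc
HMMR holds 2 adjoining CHR matches and 5 CCAAT matches, NEK2 holds 2 CCAAT matches, CDC45 holds 4 and RRM2 holds 3.

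Genes that restrain or start the cycle did not all lie on 1 side. Of 13 genes for D-type cyclins, their kinases, CDK inhibitors and pocket proteins, eGFP was below both dyes in 7, between in 3 and above in 3. CDKN2C, which encodes the inhibitor p18, had 277 reads in eGFP, 399 in Claret, 365 in Violet and 1314 in Bulk. RB1 had 1073, 1336, 1187 and 1988 reads in the same order. Both lay below both dyes beyond counting error, as did CDK6. CDKN1A, the p21 inhibitor and a p53 target, had 3233 reads in eGFP, 3085 in Claret, 2395 in Violet and 1375 in Bulk. It was above both dyes, nearer to Claret (log2 ratio 0.16) than to Violet (0.43). CDKN1C, the p57 inhibitor, had 326 reads in eGFP and 328 in Violet, with 392 in Claret and 133 in Bulk, and so did not separate eGFP from Violet.

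Histone genes are of interest because the label is a histone. Replication-dependent histone mRNAs end in a stem-loop and carry no poly(A) tail, and 1 of 22 H2B genes and 0 of 52 other genes of that kind passed the filter. The 1 was HIST1H2BJ, with 248 reads in eGFP, 126 in Claret, 315 in Violet and 182 in Bulk, so eGFP lay between the dyes. Of the 10 replacement histone and linker histone genes kept, whose mRNAs carry a tail, eGFP was below both dyes in 8. It was between them in 1 (H2AFZ) and above in 1 (H2AFY). Of the 8, 5 were past counting error against each dye. Of all genes kept, 31.2% lay below both dyes, and 5.38% did so past counting error against each. The list had a median of -0.18 to Claret and -0.13 to Violet. H2AFV, a variant of H2A.Z, had 1516 reads in eGFP, 1973 in Claret, 1841 in Violet and 4222 in Bulk. H2AFX, the variant phosphorylated at DNA breaks, had 725, 896, 815 and 3832 reads in the same order. H1F0, a linker histone that accumulates in resting cells, had 8167, 9493, 9561 and 7781, so it was below both dyes although Bulk was not above them. Chromatin modifiers were spread evenly, with 14 of 45 above, 17 between and 14 below both dyes.

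Outside the cell-cycle lists, 14 further genes that are not copies lay at least 1.5-fold below both dyes. Some are also genes of dividing cells. RAD51AP1, an accessory protein in the repair of breaks by recombination, had 84 reads in eGFP, 157 in Claret, 133 in Violet and 689 in Bulk. CENPW, a component of the inner kinetochore, had 71, 153, 110 and 397 reads in the same order. MTFR2, a mitochondrial fission regulator, had 54, 97, 95 and 305. In all 3, Bulk was the highest library, as it was for OXCT1, a mitochondrial enzyme for the use of ketone bodies, with 81, 144, 130 and 379.

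MUC5AC, a gel-forming secreted mucin (chr11:1157953-1201138), was the most deeply covered of them. It had 944 reads in eGFP, 1648 in Claret, 2475 in Violet and 4077 in Bulk, a log2 ratio of -0.71 to Claret (-0.83 to -0.59) and -1.40 to Violet (-1.51 to -1.29). No libraries were alike for it: each of the 4 held a different level, with eGFP lowest. Its neighbour MUC5B did not follow, with 5227 reads in eGFP, 5471 in Claret, 14741 in Violet and 5790 in Bulk.

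IKBKG encodes NEMO, the regulatory subunit of the kinase that activates NF-κB (chrX:154541199-154565046). It had 216 reads in eGFP, 420 in Claret, 374 in Violet and 278 in Bulk, so eGFP was the lowest of the 4 libraries and the dyes the highest. It shares 35.5% of its 31-base words with other genes, chiefly the pseudogene IKBKGP1, and summed with that gene the counts were 236, 430 and 386 in the 3 sorts. The sources used here do not say whether reads were counted by strand, so reads from overlapping genes cannot be told apart.

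The remaining members below were weakly expressed, with 55 to 126 reads in eGFP. SORBS2, an adaptor of actin and adhesion sites, had 55 reads in eGFP, 107 in Claret, 129 in Violet and 58 in Bulk. CAMK4, a calcium-dependent kinase, had 74, 124, 122 and 250 in the same order. PAEP, the secreted lipocalin glycodelin, had 105, 173, 205 and 45. The position of Bulk thus varied: highest for CAMK4, near eGFP for SORBS2 and lowest for PAEP. DLK2, LYSMD4, ZBED9, ZNF449 and SPTBN5 complete the list, at log2 distances of -0.72 (LYSMD4) to -0.59 (SPTBN5) from the nearer dye. DLK2, LYSMD4 and SPTBN5 overlap a gene on the other strand. At the edge of the rule, SPTBN5 (log2 distance -0.59) was just inside and SLC35E3 (-0.58, with 112 reads in eGFP, 180 in Claret and 183 in Violet) just outside. The non-coding genes farthest below, AC010186.3, C10orf91 and AC010343.3, stayed inside 1.5-fold, at -0.55, -0.54 and -0.52.

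Above both dyes, 4 genes that are not copies passed 1.5-fold, each on 108 to 151 reads in eGFP. RAB3B, a small GTPase of vesicle release (chr1:51907956-51990764), had 151 reads in eGFP, 91 in Claret, 77 in Violet and 13 in Bulk. Its log2 ratio was 0.81 to Claret (0.44 to 1.22) and 0.95 to Violet (0.56 to 1.38). SGK2, a kinase related to the serum- and glucocorticoid-induced kinase SGK1 (chr20:43558968-43588237), had 125 reads in eGFP, 76 in Claret, 77 in Violet and 19 in Bulk. The dyes were alike in both genes, and Bulk had the fewest reads. SGK1 itself was not above, with 253 reads in eGFP, 328 in Claret and 255 in Violet. The non-coding genes AC105345.1, which overlaps TRMT44 on its strand, and TRAPPC12-AS1, antisense to TRAPPC12, had 110 and 108 reads in eGFP. In Claret both had 76, and in Violet 71 and 65. TRAPPC12-AS1 was the gene just inside the rule (log2 distance 0.59), and KCNJ14 (0.57) the gene just outside.

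The next protein-coding genes above both dyes lay at log2 distances of up to 0.57 (KCNJ14), with WNT8B at 0.47. BBC3, which encodes the pro-apoptotic p53 target PUMA, was the most deeply covered, with 362 reads in eGFP, 266 in Claret, 254 in Violet and 53 in Bulk. SYT7, a calcium sensor of membrane fusion, had 105, 75, 64 and 7 reads in the same order. WNT8B, a Wnt ligand, had 220, 167, 157 and 28. In these 3 genes, as in RAB3B and SGK2, the order was eGFP, then the dyes, then Bulk. KCNJ14 and KCND1, both potassium channel subunits, had 137 and 143 reads in eGFP and 91 to 109 in the dyes. PSMA6, a subunit of the proteasome core, had 109 reads in eGFP and 73 to 78 in the dyes, and the same 73 in Bulk as in Violet. SLC12A7, a potassium-chloride transporter, KRTAP2-3, a keratin-associated protein, and GGT7, of the gamma-glutamyltransferase family, also belong to this set. KRTAP2-3 shares 43.3% of its 31-base words with other genes, and KCNJ14 and GGT7 overlap another gene.

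**Figure D3:**
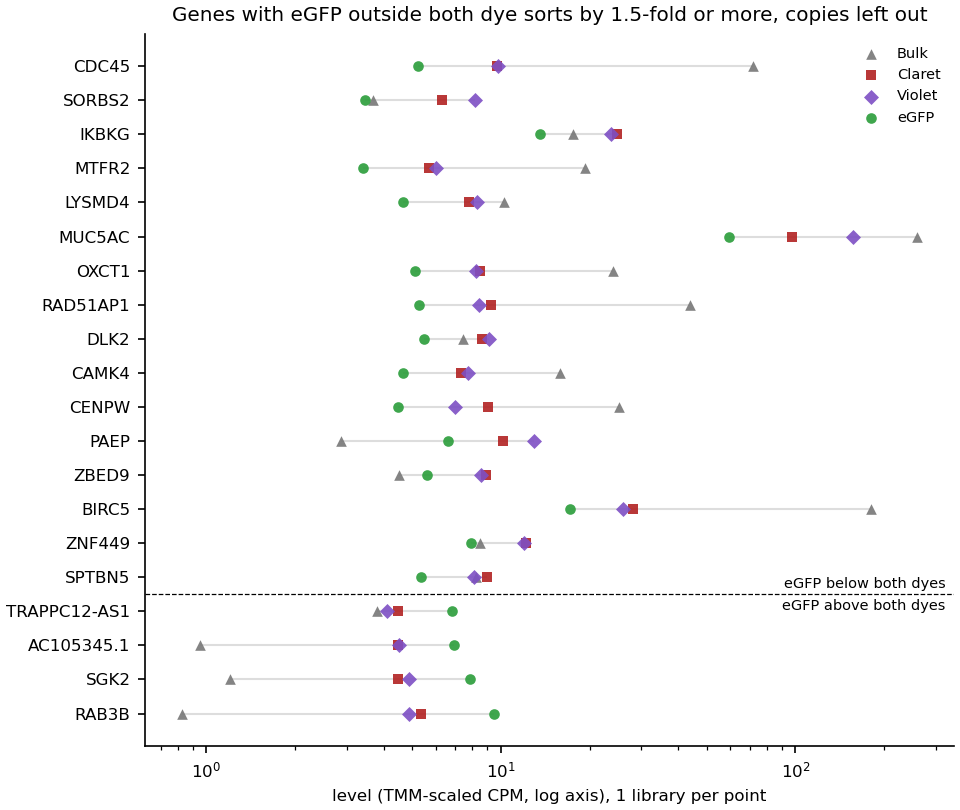
Level (TMM-scaled CPM, log axis) in each of the 4 libraries for the 20 genes at least 1.5-fold outside both dyes that are not near-identical copies; each point is 1 library. Bulk (triangle) lies far right of the other libraries for CDC45, BIRC5 and RAD51AP1 and far left for RAB3B, SGK2 and AC105345.1.

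The place of Bulk was not used to choose these genes. Bulk was above all 3 sorts in 47.1% of the genes kept, among them in 12.2% and below all 3 in 40.7%. Of the 16 members below that are not copies, Bulk was above all 3 sorts in 9, among them in 5 and below in 2. Of the 4 above that are not copies, Bulk was below all 3 in 4. Past the wider limit, copies left out, Bulk was below all 3 sorts in 62 of 86 genes above, and above all 3 in 99 of 178 genes below. Whether these shares differ from those of all genes was not tested.

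AP-1, the transcription factor of FOS and JUN proteins named in the series title, was measured through its 7 genes, several of which, FOS among them, are switched on within minutes of a stimulus. eGFP was above both dyes in 5, between in 1 and below in 1 (FOSL2), with a median of 0.15 to Claret and 0.23 to Violet. Of all genes kept, 33.6% lay above both dyes, and 5.84% did so past counting error against each. In 3 of the 5, and so 3 of the 7, the ratio was past counting error against each dye. FOSB and JUND were within counting error of Claret. FOS had 1052 reads in eGFP, 994 in Claret, 716 in Violet and 653 in Bulk. FOSB had 415, 400, 246 and 222 reads in the same order. JUNB had 3740, 3442, 2713 and 831. JUN had 6796, 6366, 5896 and 4391, and JUND had 2499, 2588, 2121 and 1029. In FOS and FOSB Claret lay nearer to eGFP, and Violet lay well under both. For JUNB Claret lay about midway, with a log2 ratio of 0.22 for eGFP to Claret and -0.24 for Violet to Claret. No gene of the 7 passed the wider limit, the farthest being JUNB at a log2 distance of 0.22. Of 33 other immediate-early genes, eGFP was above both dyes in 19, between in 9 and below in 5, with medians of 0.06 to Claret and 0.17 to Violet. DUSP1, a phosphatase that switches MAP kinases off, had 2481 reads in eGFP, 2146 in Claret, 2002 in Violet and 1463 in Bulk. ID2 had 149, 124, 78 and 177, and was the only gene of that list above the wider limit.

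Cholesterol-synthesis genes also lay mostly on the upper side, at small distances. Of 24 kept, eGFP was above both dyes in 18, between in 6 and below in 0, with a median of 0.08 to Claret and 0.15 to Violet, and in 9 the ratio was past counting error against each dye, where 5.84% of all genes kept were. HMGCS1, which makes the precursor HMG-CoA, had 1910 reads in eGFP, 1660 in Claret, 1504 in Violet and 1050 in Bulk. INSIG1, which holds the regulator SREBP in check, had 2541, 2328, 2123 and 1317 reads in the same order. MSMO1, a sterol oxidase, had 5227, 4814, 3979 and 1670. No cholesterol gene passed the wider limit. Fatty-acid-synthesis genes were above in 10 of 16, and in 3 of these the ratio was past counting error against each dye. Among the 10 was FASN, with 18048 reads in eGFP, 16528 in Claret, 15302 in Violet and 18094 in Bulk. Of all genes kept, 33.6% lay above both dyes.

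NF-κB targets and cytokines were above both dyes in 12 of 19, between in 3 and below in 4, with medians of 0.17 to Claret and 0.06 to Violet. In 4 of the 12, and so 4 of the 19 kept, the ratio was past counting error against each dye. Of all genes kept, 33.6% lay above both dyes, and 5.84% did so past counting error against each. CXCL8, a chemokine, had 1153 reads in eGFP, 964 in Claret, 928 in Violet and 265 in Bulk. NFKB2 had 2975, 2746, 2519 and 1832 reads in the same order. TNFAIP3, the inhibitor A20 and itself a target, had 158, 189, 183 and 187, below both dyes within counting error. Matrix and protease genes were above in 17 of 34, between in 12 and below in 5. LAMA3, a laminin chain, had 465 reads in eGFP, 396 in Claret, 379 in Violet and 233 in Bulk. COL6A3 had 73, 102, 111 and 40, below both dyes but within counting error of Claret. COL6A2, another chain of collagen VI, had 6102, 5593, 5295 and 2134, above both dyes.

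Integrins were divided, with 3 of 11 above, 4 between and 4 below. ITGB4, the partner of integrin α6 in hemidesmosomes, had 5288 reads in eGFP, 7086 in Claret, 8020 in Violet and 2327 in Bulk, and passed the wider limit. Of the TGF-β family, INHBB, the activin βB chain, had 373 reads in eGFP, 554 in Claret, 641 in Violet and 376 in Bulk. FST, which encodes follistatin, a binder of activins, had 496, 428, 330 and 482. Ligand and binder thus lay on opposite sides of the dyes, INHBB below and FST above, while the TGF-β list as a whole had 9 of 23 above and 8 below.

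Lists of energy and stress genes held few members past the wider limit, IRF1 and BBC3 above. The 13 protein genes of the mitochondrial genome were above both dyes in 0, between in 4 and below in 9, with medians of -0.14 to Claret and -0.03 to Violet; MT-CYB had 20092 reads in eGFP, 24734 in Claret, 22547 in Violet and 28788 in Bulk. Nuclear genes of oxidative phosphorylation were spread, with 23 of 79 above, 35 between and 21 below. Cytosolic ribosomal proteins were between the dyes in 57 of 83, above in 25 and below in 1, with a median log2 ratio of Violet to Claret of -0.18. Heat-shock genes were above in 6 of 16, targets of ATF4 and the unfolded protein response in 10 of 29, interferon-response genes in 9 of 23, p53 targets in 7 of 18, hypoxia and glycolysis genes in 6 of 32, and lysosome and endocytosis genes in 14 of 43. Below both dyes these lists had 1, 7, 8, 5, 7 and 12 genes in the same order. Of all genes kept, 33.6% lay above both dyes and 31.2% below, and most of these lists had a share above near that. Targets of cAMP signalling and the clock were above in 8 of 17, between in 4 and below in 5, and actin and YAP target genes above in 3 of 18, between in 9 and below in 6. Of the 685 genes in any of the 26 lists, 2 (CDC45 and BIRC5) were 1.5-fold outside both dyes. That share is near the 0.278% of all genes kept.

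**Figure D4:**
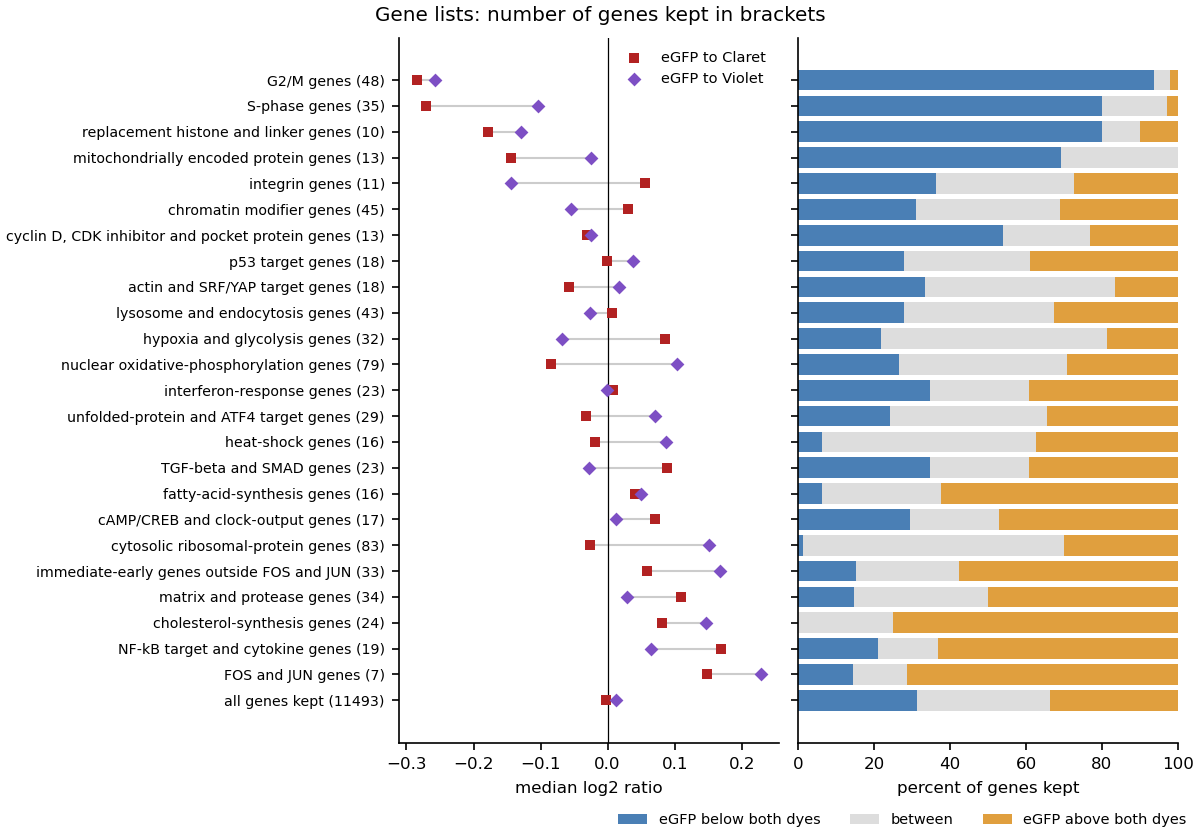
Left, median log2 ratio of eGFP to Claret (squares) and to Violet (diamonds) for each list with 5 or more genes kept; right, percent of its genes with eGFP below both dyes, between them or above both. The G2/M list has medians of -0.28 and -0.26 and the FOS and JUN list 0.15 and 0.23, while all genes kept (bottom) lie at -0.00 and 0.01.

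Near-identical gene copies made up 12 of the 32 members and held the widest distances. A gene is called a copy here when at least 50% of its 31-base words occur in another gene of GENCODE 29. How the counting treated reads that match several genes is not given in the sources used here, so each is uncertain by itself. SERF1B had 256 reads in eGFP, 13 in Claret, 26 in Violet and 52 in Bulk, and its copy SERF1A, on the same chromosome arm, had 2, 5, 7 and 3. Summed, the pair kept its distance, with 258, 18 and 33 reads in the 3 sorts. Both copies share their annotated coding stretch in full in the isoform shown, printed because a read from it fits both genes equally:
SERF1A and SERF1B, shared coding sequence of 186 bases (spanning chr5:70900870-70907803 and chr5:70025452-70032384, both plus strand, GRCh38, GENCODE 29, no stop codon): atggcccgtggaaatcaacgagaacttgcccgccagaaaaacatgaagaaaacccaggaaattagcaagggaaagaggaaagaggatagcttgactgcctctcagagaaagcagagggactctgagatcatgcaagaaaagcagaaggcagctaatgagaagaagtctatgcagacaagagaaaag

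XAGE1B, a cancer-testis antigen gene, had 493 reads in eGFP, 122 in Claret, 9 in Violet and 93 in Bulk, and with its copy XAGE1A 513, 139, 17 and 103. BOLA2B had 2 reads in eGFP, 325 in Claret, 6 in Violet and 24 in Bulk, and BOLA2 had at most 1 in any library; here Claret alone stood apart and alone carried the gene past the filter on low values, and the distance of eGFP to Violet was within counting error, so its place among the 21 genes below rests on a few reads. STAG3L1 had 43 reads in eGFP, 131 in Claret, 169 in Violet and 125 in Bulk, and with STAG3L3 119, 215, 251 and 210. It overlaps TRIM73 on its strand, with 54, 56 and 57 reads in the 3 sorts, and PMS2P2 on the other, with 46, 29 and 27. AC126755.2 had 168, 81, 63 and 26 reads, and with PKD1P1 219, 134, 105 and 100. It also overlaps PKD1P5 on its strand, which lay the other way with 88 reads in eGFP and 119 in each dye and is not in that sum. For SERF1B, XAGE1B and STAG3L1 the sum with the copy stayed more than 1.5-fold outside both dyes on the same side. The sums of AC126755.2 (log2 distance 0.79) and BOLA2B (-0.86) did so too, with the limits just given for each. For STAG3L1 and AC126755.2 only the closest partner was summed.

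In 7 further copies the distance shrank when copies were summed. FAM45BP, a processed pseudogene, had 49 reads in eGFP, 112 in Claret and 95 in Violet, while with its parent FAM45A the sums were 461, 454 and 460. EIF1AXP1 had 113, 213 and 181, and with EIF1AX 1323, 1468 and 1341. NBPF10 had 238, 116 and 96, but the sums over 5 NBPF genes were 2154, 2329 and 2095. NPIPB4 had 57, 118 and 150, and 6 NPIPB genes together had 1354, 1587 and 1545. WASH7P, LINC01001 and AC244154.1 likewise lay between the dyes or, for WASH7P, at a log2 distance of 0.04 once summed. The sum farthest from the dyes among these 7 was that of NPIPB4, at -0.13.

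**Figure D5:**
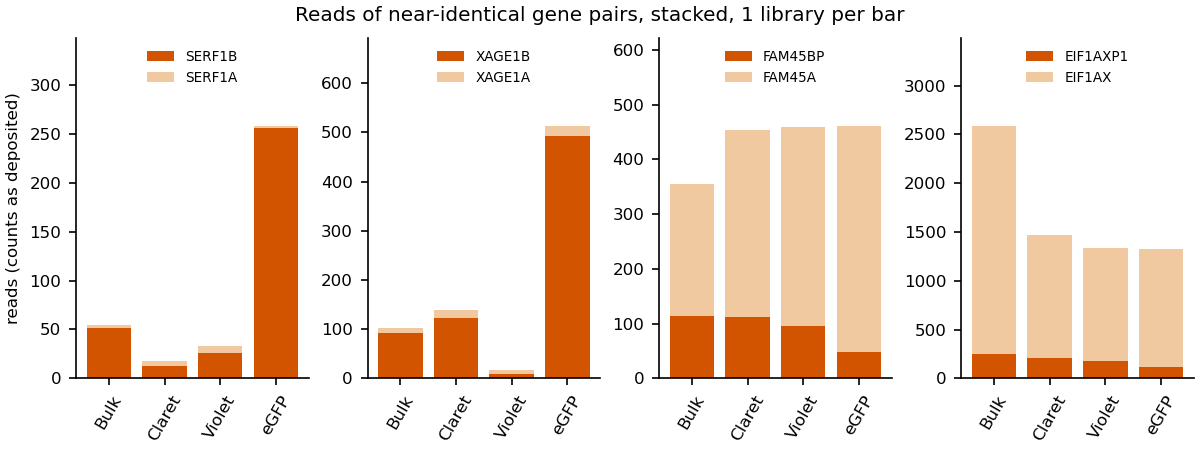
Reads as deposited (y axis from 0, a scale of its own in each panel) in each of the 4 libraries for 4 pairs of near-identical genes, the member with eGFP outside both dyes in dark and its partner in light. The eGFP bar stands apart for SERF1B with SERF1A (258 reads) and XAGE1B with XAGE1A (513 reads), while the stacked bars of FAM45BP with FAM45A reach 454 to 461 in the 3 sorts.

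Where Claret and Violet are taken as 2 libraries of 1 group, which the labels do not say, a test becomes possible. edgeR's quasi-likelihood test with Benjamini-Hochberg adjustment over 11493 genes then gave 5 genes higher in eGFP (0.0435%) and 17 lower (0.148%). It rests on 1 library against 2 and takes eGFP to vary as the dyes do. Before adjustment, 578 of the 11493 genes had p under 0.05 by edgeR's quasi-likelihood test. With no difference in any gene, a share of about 0.05 of them would fall under that limit. The 578 are thus near the number that no difference would give, and are not a count of differing genes. Lower in eGFP by this test were MUC5AC (adjusted p = 1.549e-09), IKBKG (adjusted p = 0.0025), BIRC5 (adjusted p = 0.030) and the spindle genes CENPF (adjusted p = 0.028) and ASPM (adjusted p = 0.032). INHBB (adjusted p = 0.018) and NET1, an exchange factor for RhoA (adjusted p = 0.0014), were lower as well, NET1 with 1481 reads in eGFP, 2124 in Claret, 2470 in Violet and 2507 in Bulk. CYP1B1, an enzyme of xenobiotic and estrogen metabolism, was the only higher gene that is no copy (adjusted p = 0.0012), with 996, 821, 499 and 161 reads in the same order. The test also called MUC5B, in which eGFP lay between the dyes. Near-identical copies were among the lower genes too, some of them with Claret alone standing apart. EIF3CL had 30 reads in eGFP, 591 in Claret and 43 in Violet, and NOMO3 had 217, 521 and 268. DESeq2 with the same grouping called 1 gene higher, SERF1B (0.0087%), and 0 lower, and 83 genes had an unadjusted p under 0.05 by it, against 578 by edgeR.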

How the data were processed

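RNA was sequenced from 4 sorted populations of MDA-MB-231 cells, 1 library each; TRIzol and a NEBNext Ultra RNA kit were used, per the labels. The deposited table holds whole-number read counts per gene, with no normalization. A second table holds FPKM values that the authors derived from the same counts, since 1 factor per library turns count over gene length into FPKM. HISAT2 2.0.5 and featureCounts 1.5.0-p3 are named in the submitters' processing notes; genome build, use of strand and treatment of multiply matching reads are not given in the sources used here. Start and end of all 58735 genes match GENCODE 29 (GRCh38), which supplied transcripts for 31-base words and GC content.

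Counts were scaled by TMM (edgeR 4.0.16, R 4.3.3) over the 3 sorts, and log2 CPM used a prior count of 2. Genes had to reach a mean of 5 CPM. A fold of 1.5 to the nearer dye library made a call, and a log2 distance of 0.32 a wider set. There is no test in the main analysis, because each sort has 1 library; edgeR's quasi-likelihood test and DESeq2 1.42.0, with the dyes as 1 group, were alternatives, as were other scalings, filters, prior counts, references and groups by the treatment field. FPKM entered as log2(FPKM + 1), which understates folds of weak genes. A count of 0 allows up to 3 reads, or 0.177 to 0.193 CPM. Reads carry no molecular identifiers, so intervals cover counting error only. Scripts were tested on simulated data.

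Genes were named from the 12 protein-coding genes farthest above and below both dyes that are no copies and are past counting error, all copies past 1.5-fold, the 3 non-coding genes farthest on each side, the 2 farthest on each side of each list, and FOS, FOSB, JUN, JUNB, JUND, SIK1, MKI67, TOP2A, CDKN1A, CDKN1C and H2B genes; other names were chosen after their values were seen. Some genes that the rule names are not reported here. Genes and lists were chosen with earlier results of these data known.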

Additional observations from a re-analysis of the deposited data

How the results depend on the processing

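Of 11 genes above and 21 below both dyes, scaling by total count gave 11 and 22, DESeq2 size factors 10 and 22, a prior count of 0.5 11 and 24, GC correction 10 and 23, and the fold with counting interval 11 and 20. Of the 32 genes, 32, 31, 32 and 29 were shared with the first 4 of these settings. Filters moved the numbers most: 101 above and 209 below at 1 CPM, 1 and 6 at 10 CPM, and 2640 and 1552 with no filter, so that most calls lie in weakly covered genes. With log2(FPKM + 1) there were 5 above and 5 below, at the wider limit 104 and 201, and at 2-fold 4 and 2. Against Claret alone there were 48 and 56, against Violet alone 45 and 101. Leaving out copies left 4 above and 16 below; summing copies gave 8 and 20. edgeR's quasi-likelihood test gave 5 above and 17 below, of which 10 were shared with the 32, and DESeq2 1 and 0. Groups by the treatment field gave 16 above and 11 below. List medians in this section are of the mean of each gene's log2 ratios to the 2 references. Under that field, an alternative chosen after seeing the data, the median was -0.96 for S-phase and -0.94 for G2/M genes. Its references are the libraries titled Bulk and eGFP, so these medians include a ratio to the library titled Bulk. Of the members, 41 of 43 and 50 of 51 lay between the references, so most were no longer outside both. With the titles, the S-phase median of this mean was -0.17 and stayed between -0.19 and -0.15 over 6 alternatives. The G2/M median was -0.29 and stayed between -0.31 and -0.28. Of the other list medians, the H2B median alone shifted by 0.1 or more on the log2 scale, to -0.23 with a filter at 1 CPM. Smaller shifts took the integrin median from -0.04 to -0.13 at 1 CPM and -0.01 at 10 CPM. The medians of the nuclear oxidative-phosphorylation, interferon, hypoxia, actin and lysosome lists, all near 0, changed sign under at least 1 setting. Scaling and filters shifted the median over all genes by less than 0.1. No paired analysis was possible because the labels carry no replicate numbers. Leaving out a replicate was not possible with 1 library per sort; the references by 1 dye alone stand in for it.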

Other observations

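Genes under the filter held further distances. Among 2371 genes below a mean of 5 CPM with at least 30 reads in a library, 32 lay 2-fold or more outside both dyes; those named next were chosen after their values were seen. A gene could reach 30 reads through eGFP alone, which favours a distance above the dyes, so the 32 are a description only. SIK1, a salt-inducible kinase and target of CREB, had 87 reads in eGFP, 13 in Claret, 13 in Violet and 7 in Bulk, but shares 87.4% of its 31-base words, chiefly with SIK1B, which had 254, 301, 300 and 215. MAGEA2B, a cancer-testis antigen gene on the X chromosome like XAGE1B, had 66, 12, 10 and 27 reads and is a copy of MAGEA2. CA14, a membrane carbonic anhydrase and no copy, had 71 reads in eGFP, 35 in Claret, 34 in Violet and 11 in Bulk. SHISA2 had 9, 41, 32 and 33, below both dyes, and the chemokine CCL28 had 19, 48, 43 and 62.

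Genes of antigen presentation were looked at because HLA-B was among the genes above the wider limit, so their choice followed from the values. Of 14 genes, 9 lay above both dyes, 4 between and 1 (ERAP1) below, where 33.6% of all genes kept lay above. Of the 9, NLRC5, B2M and PSMB9 were within counting error of at least 1 dye. HLA-B had 6237 reads in eGFP, 4929 in Claret, 4647 in Violet and 2461 in Bulk. The peptide transporter TAP1 had 1248, 1111, 1066 and 905 reads in the same order. HLA genes form a family of similar, highly variable genes, and how shared reads were assigned is not given in the sources used here. Beyond the fixed lists, MYBL2, a partner of the MuvB complex, had 234 reads in eGFP, 393 in Claret, 342 in Violet and 3494 in Bulk. CDC25A, the phosphatase that activates cyclin-dependent kinases, had 68, 111, 100 and 712 reads in the same order, and both lay below the dyes past the wider limit.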
